A study of Mus musculus with 2 samples.

Results

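Hedgehog signalling was followed through 9 genes chosen by name from a table of RPKM values for skin cells of the mouse: the ligand Shh, the receptor Ptch1 and co-receptor Boc, the transducers Smo and Sufu, the transcription factors Gli1, Gli2 and Gli3, and the inhibitor and target Hhip. All 9 were found among the 23233 symbols of the table. RNA came from cells that an antibody against the zinc importer ZIP10 stained, called ZIP10-positive cells, and from cells it did not stain, called ZIP10-negative cells. Both populations were sorted from dissociated ventral skin of 7-day-old C57BL/6 mice, the titles call them follicle cells, and each gave 1 library of polyadenylated RNA. Dispase and collagenase freed the cells, and the dye 7-AAD, which enters dead cells, was added before sorting. The labels name no genotype, no number of animals, no pooling and no marker of a single cell type in the sort. With 1 library per population there was no replicate and no test, and every difference below describes these libraries.

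Hedgehog signalling starts when a secreted ligand binds Ptch1, a receptor that in the absence of ligand holds the membrane protein Smo inactive. Freed Smo acts at the primary cilium and relieves the hold of Sufu on the Gli factors, of which Gli2 acts mainly as an activator and Gli3 mainly as a repressor. Gli1, Ptch1 and Hhip are themselves induced by the signal, so their RNA is widely used as its readout. In growing hair follicles Shh is made by cells of the epithelial matrix and acts on neighbouring epithelium and on the dermal papilla.

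RPKM is a read number scaled by transcript length and library size. Levels of different genes are set side by side below, with the limit that the ratio between the libraries still followed transcript length. The values themselves gave an estimated depth of about 2.8e+06 reads for ZIP10-positive cells and 2.73e+06 for ZIP10-negative cells. Read numbers for single genes given below are estimates on that basis, and their 95% intervals are exact and cover counting error only. Most genes had higher RPKM in ZIP10-positive cells: among genes at 1 RPKM or more in each library the median ratio was 1.97, or 0.98 as log2, and the gene at that ratio is called the median gene. The globins took 3.46% of summed RPKM in ZIP10-positive cells and 59.4% in ZIP10-negative cells. Each member is therefore given as deposited and relative to the median gene, as a log2 ratio on the log2(RPKM + 1) scale. Slc39a10, which encodes ZIP10 and checks the sort, stood at 49.4 RPKM in ZIP10-positive cells, against 11.1 RPKM in ZIP10-negative cells, with log2 ratios of 2.05 as deposited and 1.12 relative to the median gene.

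The 9 hedgehog genes did not share a ratio. The genes that the signal induces, Ptch1, Gli1 and Hhip, together with Gli2, had nearly equal or lower values in ZIP10-positive cells and lay below the median gene. Smo was 3.07-fold higher in ZIP10-positive cells and was the only member above the median gene beyond counting error, while Shh, Boc, Sufu and Gli3 had intervals that held the median gene. All 9 had at least 1 RPKM in both libraries. On the log2(RPKM + 1) scale, which understates the change of low genes, 1 of 9 members was at least 2-fold higher as deposited, where 44.1% of 12249 genes compared were, and 0 of 9 were at least 2-fold lower, where 3.55% of genes were. Relative to the median gene 0 of 9 were at least 2-fold higher, against 14.7% of genes, and 2 of 9 at least 2-fold lower, against 11.4% of genes. With the 50 most abundant genes left out of the scaling 0 of 9 were at least 2-fold higher, against 10.5% of genes, and 3 of 9 lower, against 16.2%. With globins and Rn45s, the ribosomal RNA precursor, left out 0 of 9 were higher, against 8.99%, and 3 of 9 lower, against 19.2%. A pseudocount of 0.1 gave 2 of 9 higher, against 52.7% of genes, and 0 of 9 lower, against 5.54%. Without a pseudocount Shh, at a ratio of 2.23, and Boc, at 2.03, also passed 2-fold as deposited. Gli2 was then 2.02-fold lower relative to the median gene. The share of all genes without a pseudocount was not computed. The members' median log2 ratio was 0.44 as deposited and -0.25 relative to the median gene, beside 0.87 and 0.09 over all genes compared.

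**Figure D1:**
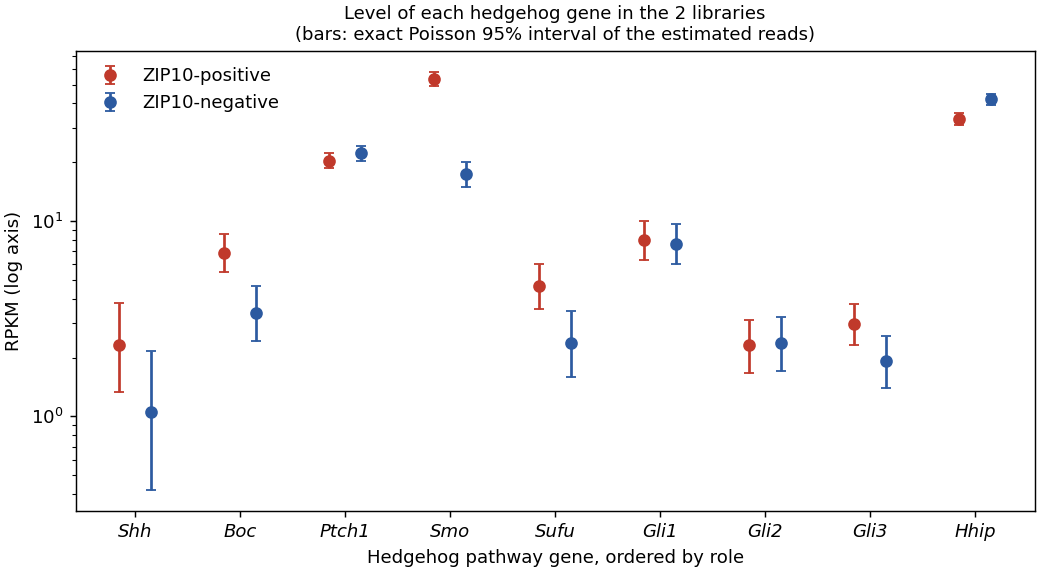
RPKM on a log axis of each hedgehog gene in the ZIP10-positive library (left, red) and the ZIP10-negative library (right, blue), with bars for the exact Poisson 95% interval of the estimated reads. Smo stands at 53.4 RPKM in ZIP10-positive cells, against 17.4 RPKM in ZIP10-negative cells. The intervals of Smo, Boc, Sufu and Hhip do not overlap between the libraries, and of these only Hhip is lower in ZIP10-positive cells. Those of Shh, Ptch1, Gli1, Gli2 and Gli3 overlap, though the interval of the Gli3 ratio, 1.04 to 2.32, leaves out equal levels.

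Levels spanned 2.32 to 53.4 RPKM in ZIP10-positive and 1.05 to 42.0 RPKM in ZIP10-negative cells. In ZIP10-positive cells the order ran Smo, Hhip, Ptch1, Gli1, Boc, Sufu, Gli3, Shh and Gli2, and in ZIP10-negative cells it ran Hhip, Ptch1, Smo, Gli1, Boc, Sufu, Gli2, Gli3 and Shh. In ZIP10-positive cells each neighbour from Gli1 down overlapped the next in its counting interval, and in ZIP10-negative cells each from Boc down did, while Smo, Hhip and Ptch1 were separated from each other in both. The order of Smo and Hhip thus differed between the populations beyond counting error. For Smo and Ptch1 the ZIP10-negative intervals, 14.9 to 20.1 and 20.3 to 24.2 RPKM, were barely apart. That of Ptch1 rests on 494 estimated reads, where 247 would also give its ratio. The ZIP10-negative level ratio of Smo to Ptch1, 0.783, also became 1.07 when multiplied by the ratio of genes of their lengths. Ranks among the 12249 genes do not change when a library is scaled by 1 factor, but they carry the trend with transcript length given below. By rank Smo stood above 89.0% of genes in ZIP10-positive and 85.4% in ZIP10-negative cells. Hhip stood above 83.0% of genes in ZIP10-positive and 93.7% in ZIP10-negative cells, Ptch1 above 74.9% in ZIP10-positive and 88.4% in ZIP10-negative cells, and Gli1 above 53.5% in ZIP10-positive and 70.3% in ZIP10-negative cells. Boc, at 49.6% in ZIP10-positive and 48.7% in ZIP10-negative cells, and Sufu, at 39.1% in ZIP10-positive and 38.5% in ZIP10-negative cells, kept nearly the same rank.

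Shh, the ligand, was near the lower end of the genes compared. It stood at 2.33 RPKM in ZIP10-positive cells, with an interval of 1.33 to 3.79, and at 1.05 RPKM in ZIP10-negative cells, with an interval of 0.421 to 2.16. These values rest on 16 reads from ZIP10-positive cells and 7 from ZIP10-negative cells, which are also the fewest whole reads that give the ratio. The ratio of 2.23 had an interval of 0.868 to 6.41, which holds both equal levels and the median gene, so a difference in Shh was not detectable at this depth. Its log2 ratio was 0.70 as deposited and 0.11 relative to the median gene. Exons of Shh overlap those of 9530036O11Rik and Gm26894 on the opposite strand in the annotation used here, and whether counting used strand is not given in the sources used here.

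Boc, a co-receptor that binds the ligand and presents it to Ptch1, stood at 6.89 RPKM in ZIP10-positive cells, against 3.40 RPKM in ZIP10-negative cells. About 81 reads from ZIP10-positive cells and 39 from ZIP10-negative cells gave a ratio of 2.03, with an interval of 1.37 to 3.05. With the fewest whole reads that give this ratio, 27 and 13, the interval was 1.01 to 4.28. Boc was thus higher as deposited beyond counting error, and its interval held the median gene, with log2 ratios of 0.84 as deposited and 0.03 relative to it. Ptch1, the receptor and a target, stood at 20.4 RPKM in ZIP10-positive cells, against 22.2 RPKM in ZIP10-negative cells. Its ratio of 0.920 had an interval of 0.809 to 1.05 from about 466 and 494 reads, which holds equal levels and leaves out the median gene. The log2 ratio was -0.11 as deposited and -1.05 relative to the median gene, without the pseudocount 2.14-fold lower in ZIP10-positive cells, and 14.3% of the genes compared had a lower ratio.

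Smo, the transducer that Ptch1 restrains, stood at 53.4 RPKM in ZIP10-positive cells, against 17.4 RPKM in ZIP10-negative cells, with intervals of 49.1 to 58.0 and 14.9 to 20.1. The ratio of 3.07, from about 561 reads of ZIP10-positive cells and 178 of ZIP10-negative cells, had an interval of 2.59 to 3.66 and lay above the median gene. Its log2 ratio on the log2(RPKM + 1) scale was 1.57 as deposited and 0.62 relative to the median gene, and 79.7% of the genes compared had a lower ratio. It stayed above 0 under each scaling tried, at 0.35 after the 50 most abundant genes were left out of the scaling and 0.22 after globins and Rn45s were. The last of these took off a log2 ratio of 1.39, which as a ratio lies inside the Smo interval of 2.59 to 3.66. Under that scaling Smo was therefore not higher beyond counting error. Sufu, which binds Gli proteins and restrains them, stood at 4.67 RPKM in ZIP10-positive cells, against 2.39 RPKM in ZIP10-negative cells. Its ratio of 1.95, with an interval of 1.22 to 3.19 from about 56 and 28 reads, held the median gene, and its log2 ratio was 0.74 as deposited and -0.01 relative to that gene. The fewest whole reads that give this ratio are 2 and 1, so the interval rests on the estimated length and depth. The transducer and its downstream inhibitor thus both had higher deposited values in ZIP10-positive cells, and Smo alone stood above the median gene.

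The 3 Gli factors had low to moderate levels. Gli1, an activator whose gene is itself a target, stood at 7.996 RPKM in ZIP10-positive cells, against 7.66 RPKM in ZIP10-negative cells, a ratio of 1.04 with an interval of 0.747 to 1.46. Its log2 ratio of 0.05 as deposited became -0.81 relative to the median gene, which the interval leaves out. Gli2 stood at 2.32 RPKM in ZIP10-positive cells, against 2.38 RPKM in ZIP10-negative cells, about 42 reads in each library, with a ratio of 0.975 and an interval of 0.621 to 1.53. Its log2 ratio was -0.03 as deposited and -0.71 relative to the median gene, without the pseudocount 2.02-fold lower in ZIP10-positive cells. The fewest whole reads for Gli2 are 1 in each library, so this interval rests on the estimate as well. Gli3 stood at 2.97 RPKM in ZIP10-positive cells, against 1.93 RPKM in ZIP10-negative cells, and its ratio of 1.54, with an interval of 1.04 to 2.32, held the median gene, with log2 ratios of 0.44 as deposited and -0.25 relative to it. Gli2 was therefore below the median gene by more than counting error and Gli3 was not, but the difference between them, a ratio of ratios of 1.58, had an interval of 0.856 to 2.92 that holds 1. Exons of Gli1 overlap those of Arhgap9 and Gm47200, and exons of Gli3 those of Gm6556, on the opposite strand.

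Hhip encodes a membrane protein that binds hedgehog ligands and dampens the signal. It stood at 33.2 RPKM in ZIP10-positive cells, with an interval of 30.9 to 35.6, and at 42.0 RPKM in ZIP10-negative cells, with an interval of 39.4 to 44.7. Hhip was the member with the lowest ratio, 0.789, with an interval of 0.718 to 0.868 that leaves out both equal levels and the median gene. Only with the fewest whole reads that give this ratio, 72 for ZIP10-positive and 89 for ZIP10-negative cells, did the interval, 0.570 to 1.09, hold equal levels. The log2 ratio was -0.33 as deposited and -1.28 relative to the median gene, without the pseudocount 2.50-fold lower in ZIP10-positive cells, and 10.3% of the genes compared had a lower ratio. Exons of Hhip overlap those of Gm27820 on the opposite strand.

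**Figure D2:**
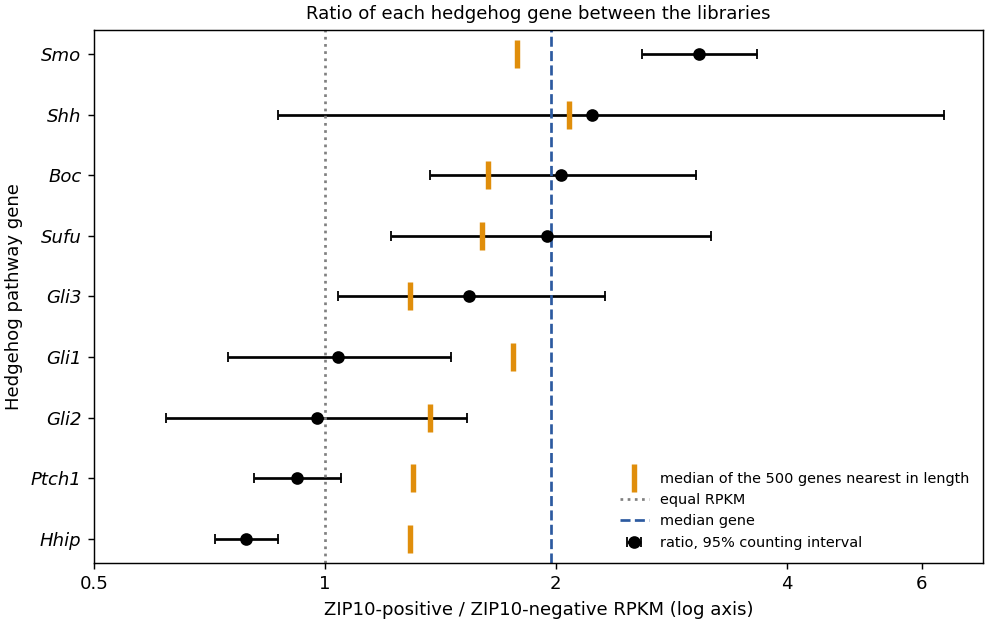
Ratio of ZIP10-positive over ZIP10-negative RPKM of each hedgehog gene on a log axis, with its exact 95% counting interval, the dotted line at equal RPKM, the dashed line at the median gene (1.97) and an orange mark at the median of the 500 genes nearest in transcript length. Hhip, Ptch1, Gli2 and Gli1 lie with their whole intervals below the median gene, and Smo lies above it.

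The promoters of the members at the ends of this order, Hhip and Ptch1 below the median gene and Smo above it, are shown because Gli factors act on their targets through a known recognition sequence. RefSeq windows of GRCm38.p6, from 250 bases before to 50 after a gene's start, were matched for 6 of the 9 members, and these 3 are printed 5′ to 3′ on the gene's strand, with capitals for the stretch nearest to the GLI motif GACCACCCA or its reverse complement TGGGTGGTC. Where several stretches of a window were equally near, as in Ptch1, only the first is in capitals. The Ptch1 window is chr13:63565686-63565985 on the minus strand, the Hhip window chr8:80057959-80058258 on the minus strand and the Smo window chr6:29735247-29735546 on the plus strand. The Ptch1 window belongs to a start inside the gene, 7863 bases downstream of the outermost annotated start, while those of Hhip and Smo lie within 6 bases of it.
Ptch1: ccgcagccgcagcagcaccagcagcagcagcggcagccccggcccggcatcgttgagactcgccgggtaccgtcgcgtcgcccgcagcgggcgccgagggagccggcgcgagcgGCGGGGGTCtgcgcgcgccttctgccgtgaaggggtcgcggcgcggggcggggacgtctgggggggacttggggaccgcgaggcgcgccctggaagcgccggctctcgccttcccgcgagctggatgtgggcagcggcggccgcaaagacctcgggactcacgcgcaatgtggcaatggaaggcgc
Hhip: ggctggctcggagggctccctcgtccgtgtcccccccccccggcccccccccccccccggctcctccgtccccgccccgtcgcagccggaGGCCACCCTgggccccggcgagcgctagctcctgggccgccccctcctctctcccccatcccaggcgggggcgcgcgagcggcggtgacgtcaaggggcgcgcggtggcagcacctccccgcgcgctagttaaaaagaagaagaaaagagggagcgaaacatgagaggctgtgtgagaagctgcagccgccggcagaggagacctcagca
Smo: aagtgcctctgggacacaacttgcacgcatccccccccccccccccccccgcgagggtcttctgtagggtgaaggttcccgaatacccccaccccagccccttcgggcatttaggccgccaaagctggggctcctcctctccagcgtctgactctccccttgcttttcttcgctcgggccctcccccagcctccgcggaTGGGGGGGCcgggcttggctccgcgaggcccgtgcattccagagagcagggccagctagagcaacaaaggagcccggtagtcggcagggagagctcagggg
None of the 6 windows, which also cover Gli2, Gli3 and Sufu, held the motif letter for letter on either strand, and 0.253% of all 32851 windows did. The stretch in capitals differed from the motif at 3 letters in Ptch1 and at 2 letters in Hhip and Smo, and 58.3% of all windows held a stretch with at most 2 differing letters. The windows of Ptch1, Hhip and Smo held 47, 30 and 17 CG dinucleotides, against a median of 7 over all windows. These letters describe only the windows and say nothing of binding elsewhere.

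Ratios between members within a library do not depend on how the libraries are scaled to each other. The Smo level was 2.62 times that of Ptch1 in ZIP10-positive cells and 0.783 times in ZIP10-negative cells. The ratio of these ratios was 3.34, with an exact interval of 2.69 to 4.15. Genes of the length of Smo had a median ratio between the libraries of 1.78 and genes of the length of Ptch1 1.30, and divided by these, a comparison chosen after the data were seen, the value was 2.45 (1.97 to 3.04). Smo was likewise 1.61 times Hhip in ZIP10-positive and 0.413 times Hhip in ZIP10-negative cells, a ratio of ratios of 3.90 with an interval of 3.20 to 4.75, and 2.83 (2.32 to 3.45) when divided in the same way. Boc against Ptch1 gave 2.20 (1.45 to 3.38) and Sufu against Hhip gave 2.47 (1.53 to 4.08), which became 1.76 (1.16 to 2.71) and 1.996 (1.23 to 3.29) against genes of their lengths. Among the targets the levels kept nearly the same proportions, with Gli1 over Ptch1 at 0.392 in ZIP10-positive and 0.346 in ZIP10-negative cells and Ptch1 over Hhip at 0.615 in ZIP10-positive and 0.528 in ZIP10-negative cells. The ratios of these ratios, 1.13 (0.791 to 1.63) and 1.17 (0.993 to 1.37), had intervals that held 1. Of all 36 pairs of members, 16 had an interval that left out 1, without adjustment for their number, 5 of these with Smo and 1 with Shh. When divided by the ratios of genes of their lengths, Smo over Gli3 (0.928 to 2.24) and Shh over Hhip (0.679 to 5.07) held 1. So did Boc over Gli2 (0.946 to 3.23) and Sufu over Gli2 (0.878 to 3.36), while Gli3 over Gli1 (1.18 to 3.42) then left it out.

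Among genes with at least 1 RPKM in both libraries the ratio between the libraries followed transcript length, and the hedgehog transcripts are long. Genes whose longest annotated transcript was at most 1000 bases had a median log2 ratio of 1.77, those of 2000 to 3000 bases 1.05, those of 4000 to 5000 bases 0.68 and those over 8000 bases 0.27. Of the 9 members 7 exceeded 4000 bases, with Shh the shortest at 2847 and Hhip the longest at 9074. Against the 500 genes nearest in length, a comparison chosen after the data were seen, Ptch1 was lower by a log2 difference of -0.50, Gli1 by -0.75, Gli2 by -0.49 and Hhip by -0.71. Smo was higher by 0.79, Boc by 0.31, Sufu by 0.29, Gli3 by 0.26 and Shh by 0.10. The intervals of Ptch1, Gli1, Hhip and Smo left out the value for genes of their length, and those of the other 5 held it. Among genes of its length 16.0% had a lower ratio than Hhip, 20.4% than Gli1, 25.2% than Ptch1 and 85.4% than Smo. On this scale 0 of 9 members were at least 2-fold higher, against 12.1% of 11112 genes, and 0 of 9 lower, against 10.4%. The trend was also present among the genes in the highest of 4 classes of abundance, with medians of 1.55 up to 2000 bases and 0.79 above 4000 bases. It was weaker in the lowest class, with medians of 0.70 up to 2000 bases, 0.70 from 2000 to 4000 and 0.40 above 4000. The 500 genes nearest in length were not matched for abundance.

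**Figure D3:**
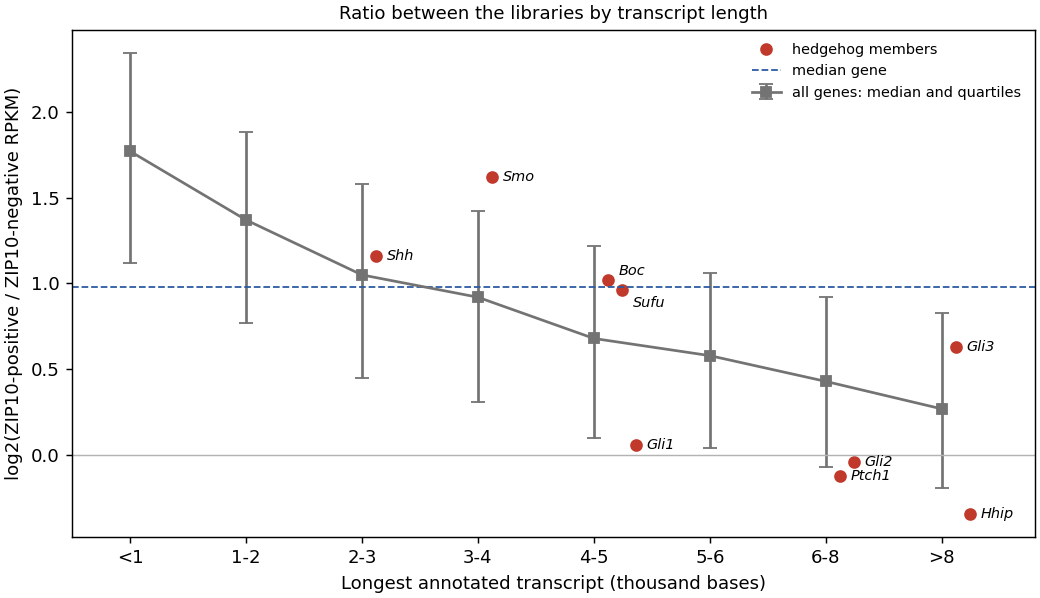
Log2 ratio of ZIP10-positive over ZIP10-negative RPKM, without a pseudocount, by length of the longest annotated transcript: grey squares and bars are the median and quartiles of all genes with at least 1 RPKM in both libraries, red points the hedgehog members, and the dashed line the median gene. The medians run from 1.77 for the shortest to 0.27 for the longest transcripts, and Gli1, Ptch1, Gli2 and Hhip lie below the median of their length class.

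The wider pathway was described through lists named for their roles, each by its counts and median, and the counts below are read against the 14.7% of all genes compared that were 2-fold or more higher, and the 11.4% lower, relative to the median gene. Of 8 genes for ligands and their release 4 were compared, and relative to the median gene 1 was at least 2-fold higher and 2 lower. Scube3 and Scube1, secreted proteins of a family that helps to release the ligand, stood at 37.4 and 9.24 RPKM in ZIP10-positive cells, against 47.8 and 10.4 RPKM in ZIP10-negative cells. Scube2, of the same family and the higher one, had 1.497 RPKM in ZIP10-positive cells and a listed 0 in ZIP10-negative cells. It was compared only through its ZIP10-positive value. Hhat, the enzyme that attaches palmitate to the ligand, stood at 3.82 RPKM in ZIP10-positive cells, against 2.24 RPKM in ZIP10-negative cells. Of the other ligands, Ihh was listed at 0 in both libraries, where 3 reads would be worth 0.477 RPKM for ZIP10-positive cells and 0.489 RPKM for ZIP10-negative cells, and Dhh had 0.332 RPKM in ZIP10-positive cells and a listed 0 in ZIP10-negative cells. A listed 0 can be a failed estimate in such a table.

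Among receptors and co-receptors 7 of 11 were compared, and relative to the median gene 0 were at least 2-fold higher and 1 lower, the list's median log2 ratio being 0.51 as deposited and -0.24 on that scale. The lower one was Evc2, a ciliary protein that works with Smo, at 2.21 RPKM in ZIP10-positive cells, against 3.20 RPKM in ZIP10-negative cells. The glypican genes Gpc3 and Gpc4, which encode cell-surface proteoglycans, stood at 66.1 and 40.0 RPKM in ZIP10-positive cells, against 41.4 and 14.1 RPKM in ZIP10-negative cells. Gas1, a co-receptor, stood at 11.8 RPKM in ZIP10-positive cells, against 7.17 RPKM in ZIP10-negative cells, whereas Cdon, the co-receptor related to Boc, had 0.154 RPKM in ZIP10-positive cells, against 0.210 RPKM in ZIP10-negative cells, under the minimum of 1 RPKM. Boc and Gas1 thus had the higher levels among these co-receptors in both populations.

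Of 30 regulators of the signal 28 were compared, and 23 of them lay below the median gene, with a median log2 ratio of 0.35 as deposited and -0.52 relative to it. The medians over all genes compared were 0.87 and 0.09. Relative to the median gene 5 of 28 were at least 2-fold lower, against 11.4% of all genes, and 1 of 28 higher, against 14.7%. Kif7, a ciliary kinesin, stood at 1.41 RPKM in ZIP10-positive cells, against 3.15 RPKM in ZIP10-negative cells. Spop and Spopl, adaptors of a ubiquitin ligase that acts on Gli proteins, stood at 39.2 and 0.856 RPKM in ZIP10-positive cells, against 51.5 and 2.02 RPKM in ZIP10-negative cells. The kinase genes Prkacb and Csnk1d stood at 10.6 and 28.3 RPKM in ZIP10-positive cells, against 20.03 and 36.1 RPKM in ZIP10-negative cells. Prkaca, which encodes the other main catalytic subunit of protein kinase A, ran the opposite way as deposited, at 50.9 RPKM in ZIP10-positive cells, against 21.9 RPKM in ZIP10-negative cells. Arrb2, a beta-arrestin that binds Smo, was the higher one, at 21.9 RPKM in ZIP10-positive cells, against 3.87 RPKM in ZIP10-negative cells. Against the median of genes of their own length 21 of the 26 regulators that could be placed lay lower, with a median difference of -0.26.

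Further targets did not move as a block. Of 18 listed 15 were compared, and relative to the median gene 1 was at least 2-fold higher and 3 lower, the list's median log2 ratio being 0.67 as deposited and -0.21 on that scale. Foxe1, a forkhead factor that is a hedgehog target in hair follicles, stood at 25.2 RPKM in ZIP10-positive cells, against 2.02 RPKM in ZIP10-negative cells. Snai1, Cdk6 and Hsd11b1 stood at 7.02, 1.27 and 18.5 RPKM in ZIP10-positive cells, against 9.06, 2.11 and 19.97 RPKM in ZIP10-negative cells. The cyclin genes Ccnd1 and Ccnd2 stood at 64.9 and 89.1 RPKM in ZIP10-positive cells, against 40.3 and 49.4 RPKM in ZIP10-negative cells, close to the median gene at log2 ratios of -0.29 and -0.13 relative to it. Many of these genes also answer to other signals.

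Primary cilium genes lay at the median gene. The table held 37, of which 30 were compared, 15 above and 15 below the median gene, and the list's median log2 ratio was 0.58 as deposited and 0.02 on that scale. Relative to the median gene 1 was at least 2-fold higher and 2 lower. B9d1, a protein of the ciliary transition zone, stood at 29.7 RPKM in ZIP10-positive cells, against 0.634 RPKM in ZIP10-negative cells. It passed the minimum of 1 RPKM only through ZIP10-positive cells. With a transcript of 817 bases its ZIP10-negative value rests on very few reads, so the size of its ratio is uncertain. Mks1, of the same zone, stood at 1.16 RPKM in ZIP10-positive cells, against 4.26 RPKM in ZIP10-negative cells. Arl13b, a small GTPase of the ciliary membrane, stood at 2.70 RPKM in ZIP10-positive cells, against 4.10 RPKM in ZIP10-negative cells. Ift20 and Ift27, subunits of the ciliary transport complex with short transcripts, stood at 56.5 and 45.7 RPKM in ZIP10-positive cells, against 20.3 and 14.1 RPKM in ZIP10-negative cells. Against genes of their own length 9 of the 20 cilium genes that could be placed lay higher and 11 lower.

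**Figure D4:**
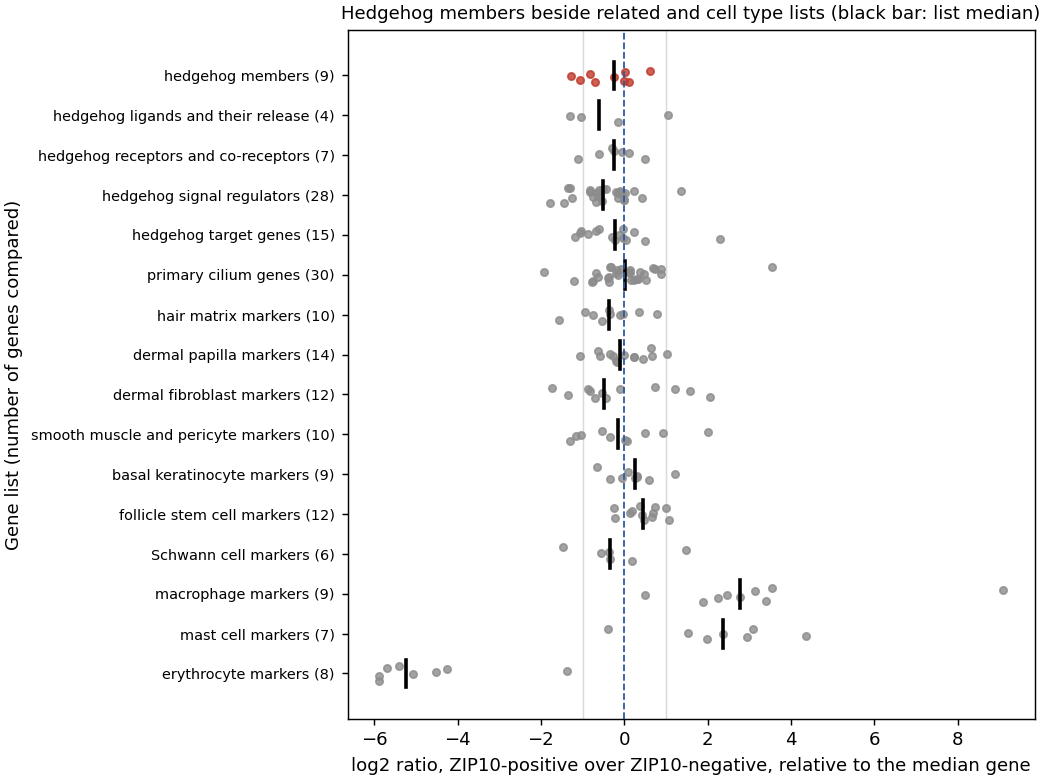
Log2 ratio of ZIP10-positive over ZIP10-negative cells relative to the median gene, on the log2(RPKM + 1) scale, for each gene compared in the hedgehog members (red) and in related and cell type lists (grey), with a black bar at each list's median and thin lines at 2-fold. The hedgehog members lie between -1.28 and 0.62, and the medians of the macrophage (2.78), mast cell (2.38) and erythrocyte (-5.23) lists lie outside that range.

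Markers of follicle and skin cells were present in both libraries beside those of blood and immune cells. All 10 hair matrix markers, a class of cells that makes Shh, were above 0 in both libraries, with summed levels of 332 RPKM in ZIP10-positive cells, against 218 RPKM in ZIP10-negative cells, and a median log2 ratio of 0.58 as deposited and -0.36 relative to the median gene. The 14 dermal papilla markers summed to 1928 RPKM in ZIP10-positive cells, against 918 RPKM in ZIP10-negative cells, with a median of -0.09 on that scale, and the 12 dermal fibroblast markers to 582 RPKM in ZIP10-positive cells, against 482 RPKM in ZIP10-negative cells, with a median of -0.49. Markers within a list differed from each other. Relative to the median gene the dermal papilla genes Corin and Crabp1 stood at log2 ratios of -1.05 and 1.03. The matrix genes Lef1 and Msx2 stood at -0.94 and 0.78 on that scale. Smooth muscle and Schwann cell markers had medians of -0.16 and -0.35. Follicle stem cell and basal keratinocyte markers had medians of 0.45 and 0.26. Macrophage markers summed to 1154 RPKM in ZIP10-positive cells, against 49.3 RPKM in ZIP10-negative cells. In ZIP10-negative cells 7 of 11 were listed at 0, C1qa, C1qb, C1qc, Aif1 and Lyz2 among them. Lyz2 alone gave 772 RPKM of the ZIP10-positive sum, and its listed 0 can be a failed estimate. Mast cell markers summed to 308 RPKM in ZIP10-positive cells, against 14.5 RPKM in ZIP10-negative cells, and the 8 erythrocyte markers to 16378 RPKM in ZIP10-positive cells, against 283756 RPKM in ZIP10-negative cells. The part of these cells in the hedgehog values was not tested, and in sorted bulk cells fewer cells of a type and less RNA per cell cannot be told apart.

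Genes with the most similar ratio were sought among 123 genes of these lists with at least 5 RPKM in a library. Likeness was the difference of log2 ratios over the 2 libraries, on the log2(RPKM + 1) scale. Nearest to Shh were Tctn1, Rspo4 and Mgrn1, each within 0.016 on that scale, which understates the change of low genes such as Shh. Without the pseudocount their ratios were 1.76, 1.64 and 1.69, beside 2.23 for Shh, whose interval of 0.868 to 6.41 holds them all. Nearest to Ptch1 were Rgs5, Hsd11b1 and Corin, within 0.031, and nearest to Gli1 were Pdgfra, Sfrp1 and Lef1, within 0.065. With 2 libraries a pattern is a single ratio, so many genes share it.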

How the data were processed

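The authors deposited RPKM values by gene symbol for the 2 libraries. Per the submitters' processing notes the tools included TopHat, cutadapt and Cufflinks, with the build mm9; versions, settings and annotation are not given in the sources. The 9 members and all gene lists were chosen with earlier results of these data known. Genes with at least 1 RPKM in at least 1 library were compared, 12249 of 23233, as log2 ratios of RPKM plus a pseudocount of 1, ZIP10-positive over ZIP10-negative. The median gene is the median log2 ratio, without a pseudocount, of the 9620 genes with at least 1 RPKM in both libraries. With 1 library per population no test was made. The rule for named genes was all members, Slc39a10, genes of each hedgehog or cilium list 2-fold or more apart relative to the median gene, and otherwise the most abundant, of which examples are printed; 1 listed gene is not reported here.

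The depth ratio came from 1389 genes of at most 1 RPKM in each library. Of these 64.6% had values in a ratio of whole numbers up to 20 times 0.975, at a tolerance of 0.0012%, against 0.0943% after rescaling. Absolute depth was the most frequent value over 312 single-transcript genes, after 221 bases were taken off each length, and 31.7% of them came within 1.4% of it. Reads of a gene are the multiple of the fewest whole reads that give its ratio nearest to the estimate from its longest transcript in GENCODE vM21, on GRCm38, another build than that of the table. For Ptch1 this gave 466 reads beside an estimate of 429. Intervals are exact Poisson for levels, exact binomial for ratios and exact conditional for ratios of ratios. Of the 12249 genes 11112 had a length. Reads carry no molecular identifiers. The depth estimates and the fold calls of abundant genes were tested on simulated reads, which held no trend with length. Read numbers of single genes, intervals and the comparison by length were not tested in this way. Calculations ran in Python 3.11.15 with scipy 1.17.1, numpy 2.4.6 and pandas 2.3.3.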

Additional observations from a re-analysis of the deposited data

How the results depend on the processing

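Scaling between the libraries set the counts and the sign of the list medians. As deposited 1 member was at least 2-fold higher; this became 0 relative to the median gene, 0 when the 50 most abundant genes were left out of the scaling, 0 when globins and Rn45s were and 0 relative to genes of nearest length, an alternative chosen after seeing the data, and 2 with a pseudocount of 0.1. The count of members at least 2-fold lower, 0 as deposited, was 2, 3 and 3 under the first 3 of these scalings, where 11.4%, 16.2% and 19.2% of all genes compared were lower, and 0 relative to genes of nearest length. Under these 3 the median log2 ratio of the members, 0.44, reversed to -0.25, -0.44 and -0.54, while relative to genes of nearest length it was 0.06. That of the other hedgehog and cilium genes together, 0.51, reversed to -0.19, -0.41 and -0.54, and to -0.14 relative to genes of nearest length. In the same order of 4 settings the ligand list reversed to -0.60, -0.82, -0.94 and -0.45, the receptor list to -0.24, -0.49, -0.61 and -0.27, the regulator list to -0.52, -0.75, -0.87 and -0.21 and the target list to -0.21, -0.45, -0.57 and -0.04. The ligand list also reversed to -0.15 with at least 1 RPKM in both libraries, and the cilium list to -0.15 with the 50 most abundant genes left out and -0.26 with globins and Rn45s left out. The other pseudocount and filter settings changed no sign of a member. Scaling moves every gene by one factor on the RPKM scale, by construction; the cause of the difference between scalings was not tested. Depth limits Shh most, with 16 reads from ZIP10-positive and 7 from ZIP10-negative cells. No paired analysis was possible because each population has 1 library.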
